A study of Arabidopsis thaliana with 6 samples.

Results

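Among the genes for small secreted signalling peptides measured in Arabidopsis thaliana seedlings, 2 genes of the RALF family, RALFL22 and RALFL33, rose in a yaf9a yaf9b double mutant and RALFL31 of the same family fell. CLE41 rose and CLE44 fell, although both encode precursors of the same peptide signal of the vascular tissue. Of these calls, only that of RALFL22 held in all 6 fits with an array left out. The calls of CLE41 and CLE44 each ended in 5 of those fits, that of RALFL31 in 4 and that of RALFL33 in 1. None of the defensin-like genes with an LCR symbol passed the test, and most of them gave signals too low to say more. The genes were chosen by name, as probe sets that list 1 gene whose symbol begins with RALFL, CLE, EPFL, IDL, DVL, RTFL, LCR or SCRL followed by a digit, with the brightest probe set taken for each gene. This gave 25 genes, each with 1 probe set, out of 13356 genes with a probe set of their own and 22746 probe sets tested. They were 11 RALFL, 6 CLE and 8 LCR genes, and the annotation used here named no probe set of the other 5 families. The RefSeq gene table names 32 RALFL, 30 CLE and 81 LCR genes, so each family is covered only in part. No gene was listed for 8730 of the 22746 probe sets.

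The samples were whole seedlings of ecotype Col-0, 20 days old, grown on agar in short days without treatment and collected at ZT8, when the light ended. Wild type (WT) was compared with plants carrying mutations in both YAF9A and YAF9B, whose products belong to the NuA4 histone acetyltransferase and to SWR1, the remodeller that exchanges H2A for H2A.Z in nucleosomes. There were 3 biological replicates of each genotype on Affymetrix ATH1 arrays, each from a sample of several seedlings, and the number of arrays limits the precision of all values below. In whole seedlings, fewer cells of one type and less RNA per cell cannot be told apart. The labels give neither the mutant alleles nor their type, and with 0 probe sets listed for YAF9A and YAF9B the genotypes were not checked by their transcripts.

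Secreted peptides are made as longer precursors with a signal sequence, are trimmed in the secretory pathway or the cell wall, and are read by receptor kinases on neighbouring cells. RALF peptides (rapid alkalinization factors) raise the pH of the cell wall space and restrain cell expansion through receptor kinases of the FERONIA group, which also watch over the cell wall and tune immunity. CLE peptides are short peptides cut from the end of their precursors that act through leucine-rich repeat receptor kinases and balance division against differentiation in meristems and in the vascular cambium. LCR genes encode low-molecular-weight cysteine-rich proteins, a group that includes plant defensins, small proteins held together by disulfide bridges that act against microbes.

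All values are the deposited RMA signals on the log2 scale, and a change is the mutant mean minus the WT mean. Over the 25 genes, limma's adjusted p was under 0.05 for 3 higher and 2 lower genes, and the median change was 0.06, against 0.01 over all probe sets. In the same comparison 13.1% of all probe sets were called, 6.52% of them higher and 6.61% lower as shares of all. With 25 genes, 5 calls are too few to set the list apart from that background, and nothing particular to secreted peptide genes is read from the count. After cyclic loess or after centring each array on its median, the counts were 5 higher and 2 lower, because RALFL24 and RALFL32 passed as well. Without mutant array 2 they were 1 higher and 0 lower. Leaving out WT array 2 or mutant array 1 gave 2 higher and 0 lower. The lower count was 1 without WT array 3, where the gene was RALFL31. It was also 1 without WT array 1, but there the gene was LCR67, which was not called with all arrays. In the fits with 0 lower, 2 genes were lower at an unadjusted limma p under 0.05. The spread between replicates was ordinary, with a median SD of 0.13 for these genes and 0.131 for all probe sets.

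**Figure D1:**
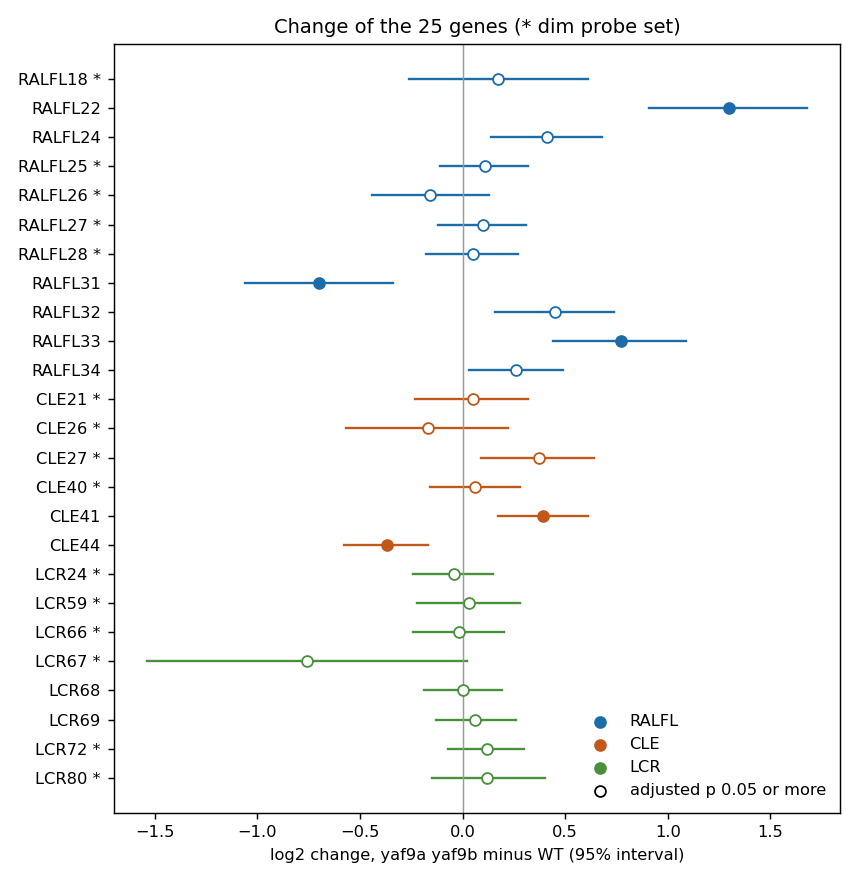
Log2 change (yaf9a yaf9b minus WT, x axis) of each of the 25 genes (y axis), with the limma 95% interval before adjustment for multiple testing. Filled points passed a limma adjusted p of 0.05: RALFL22, RALFL33 and CLE41 lie above 0, RALFL31 and CLE44 below it, and asterisks mark genes with dim probe sets.

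The genes also differed in brightness. A probe set was called dim when its mean signal lay under the 40th percentile of all probe sets, a log2 signal of 5.09. By this rule 15 of the 25 genes were dim, namely 5 RALFL, 4 CLE and 6 LCR genes. None of these 15 passed limma's adjusted p, and 1 of them, CLE27, had an unadjusted p under 0.05. Among all dim probe sets 4.83% were called and 12.6% had an unadjusted p under 0.05, and among the brighter ones 18.7% were called. The 10 genes that were not dim included all 5 that were called. The data hold no detection calls, so whether the dim genes were transcribed at all in these seedlings was not measured, and a missing difference there says little.

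**Figure D2:**
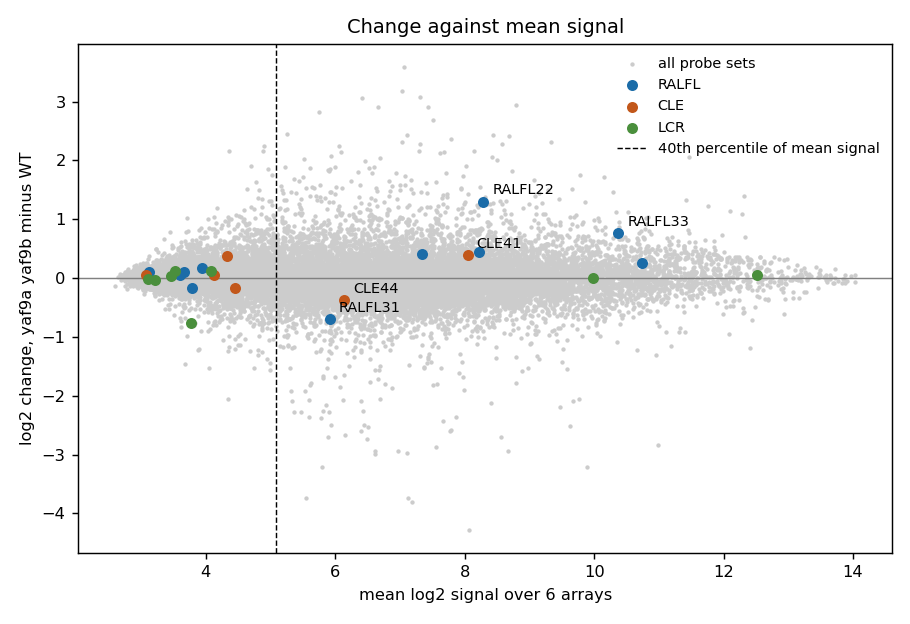
Log2 change (yaf9a yaf9b minus WT, y axis) against the mean log2 signal over the 6 arrays (x axis) for all probe sets in grey and for the RALFL, CLE and LCR genes in colour. The dashed line is the 40th percentile of mean signal, 5.09; 15 of the 25 genes lie to its left, and the 5 named genes, which passed the test, lie to its right.

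The largest change among the 25 genes was in the RALF family. RALFL22 (AT3G05490) encodes RALF22, a FERONIA ligand that takes part in building the walls of tip-growing cells. Its log2 signals were 7.85, 7.39 and 7.68 in the WT arrays and 8.86, 9.25 and 8.7 in the mutant arrays. Every mutant array lay above every WT array, with a gap wider than the range within either genotype. The mean went from 7.64 ± 0.233 to 8.94 ± 0.283 (SD, n = 3 per genotype here and below), a rise of 1.3 ± 0.167 (log2 change ± SE) or 2.46-fold (95% interval 1.88 to 3.21, limma adjusted p = 0.00391). It was the only one of the 25 genes with at least a doubling. The call held in all 14 alternative settings, and with 1 array left out the change ran from 1.14 to 1.42. Some of the 14 could not move the change: leaving out other probe sets or averaging per gene kept it at 1.3. The 1.5-fold minimum was passed by the size of the change in the main fit.

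RALFL33 (AT4G15800) encodes RALF33, which like its close relative RALF23 acts through FERONIA and dampens immune signalling. It gave 10.17, 10.1 and 9.71 in WT and 10.71, 10.94 and 10.63 in the mutant. The genotypes did not overlap, and the mutant array numbered 2 was the highest, as it was for RALFL22. RALFL33 rose by 0.77 ± 0.142, or 1.7-fold (95% interval 1.36 to 2.13, limma adjusted p = 0.0133). The call ended without mutant array 2 (adjusted p = 0.0618), where the change was 0.68. In the RefSeq annotation RALFL33 overlaps a long noncoding RNA gene, AT4G06335, which had no probe set named here.

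RALFL31 (AT4G13950) went the other way, with 6.31, 6.56 and 5.93 in WT and 5.45, 5.57 and 5.67 in the mutant. WT array 3 was nearest to the mutant arrays, and the groups stayed apart. RALFL31 fell by 0.7 (log2 change, SE 0.156), 1.63-fold lower in the mutant (limma adjusted p = 0.0245). That call ended without WT array 1 (adjusted p = 0.0701), WT array 2 (0.067), mutant array 1 (0.0709) or mutant array 2 (0.0896), with changes from -0.56 to -0.71 in those fits. RALFL31, RALFL32 and RALFL33 all lie on chromosome 4, and RALFL31 differed in sign from the other 2.

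The other 3 RALFL genes that were not dim lay higher in the mutant without passing the test. RALFL32 (AT4G14010) had 8.19, 7.74 and 8.03 in WT and 8.53, 8.42 and 8.36 in the mutant, a change of 0.45 ± 0.125 (limma adjusted p = 0.0515). Its annotated locus overlaps that of AT4G14000, whose own probe set had a change of -0.26 ± 0.115 (limma adjusted p = 0.189). RALFL24 (AT3G23805) had 7.32, 7.17 and 6.93 in WT and 7.52, 7.47 and 7.66 in the mutant, a change of 0.41 ± 0.117 (limma adjusted p = 0.0568). Both genes sat at the edge of the threshold: RALFL32 passed in 6 of 14 alternatives and RALFL24 in 5 of 14, including in both cases a fit without WT array 1 (limma adjusted p = 0.0396 and 0.0472).

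RALFL34 (AT5G67070) encodes RALF34, a ligand of the wall-sensing receptor kinase THESEUS1 that acts before lateral root initiation. It gave 10.77, 10.48 and 10.6 in WT and 10.91, 10.8 and 10.91 in the mutant. The genotypes were separate by a narrow margin, and the change of 0.26 ± 0.0994 did not pass (95% interval 0.03 to 0.49, limma adjusted p = 0.136). All 6 RALFL genes that were not dim therefore had separate genotypes, 5 with the mutant above and 1 with it below. Over all probe sets that were not dim 41.3% had separate genotypes, and over all probe sets 31.6%. WT array 2 was the lowest WT array for RALFL22, RALFL32 and RALFL34, and WT array 3 for RALFL24, RALFL31 and RALFL33. Whether these genes share a pattern across the WT arrays was not tested.

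**Figure D3:**
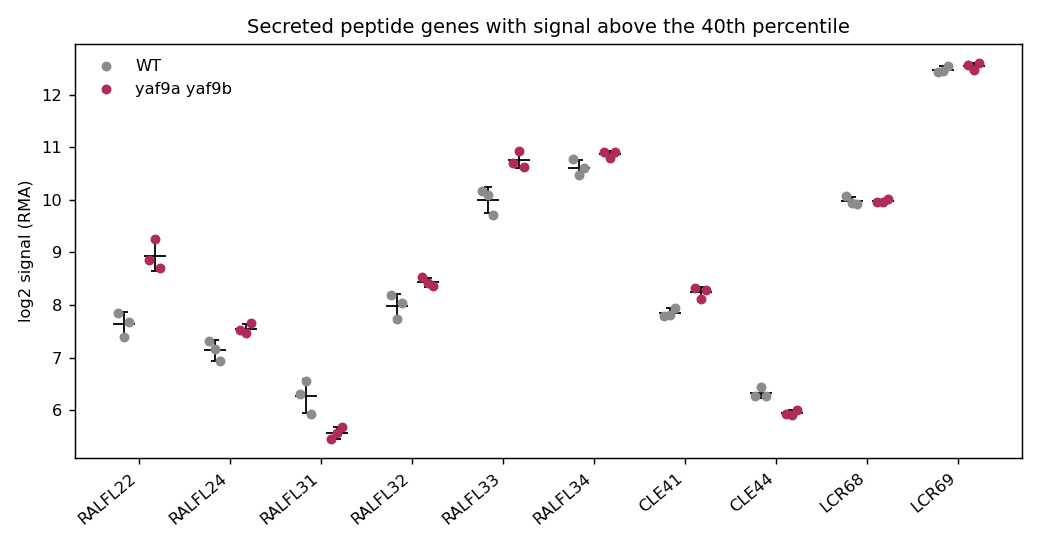
Log2 RMA signal (y axis) in each array for the 10 genes whose probe sets were not dim, with WT arrays in grey, yaf9a yaf9b arrays in red, horizontal bars for means and error bars for 1 SD (n = 3). Levels can be compared within a gene but not between genes; RALFL22 shows the widest gap between genotypes, RALFL31 and CLE44 lie lower in the mutant, and LCR68 and LCR69 overlap.

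The remaining RALFL genes were dim. RALFL18, RALFL25, RALFL26, RALFL27 and RALFL28 had signals from 2.94 to 4.49 over the 6 arrays, and their changes ran from -0.16 for RALFL26 to 0.17 for RALFL18. None had separate genotypes, and limma called 0 of the 5, with 0 at an unadjusted p under 0.05. RALFL18 varied most, at 4.49, 3.92 and 3.67 in the mutant. RALFL25 and RALFL26 are neighbours on chromosome 3, with RALFL25 at the 3.68th percentile of mean signal and RALFL26 at the 22nd. Over the 11 RALFL genes measured, 2 rose, 1 fell and 8 did not pass, with a median change of 0.17. With 11 genes, and 13.1% of all probe sets called, nothing particular to RALFL genes is read from this count.

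Of the 6 CLE genes measured, 1 rose, 1 fell and 4 did not pass, with a median change of 0.05. With 6 genes, and 13.1% of all probe sets called, nothing particular to CLE genes is read from this count. The pair that changed is CLE41 and CLE44, whose precursors give rise to an identical dodecapeptide known as TDIF. It is made in the phloem, is perceived by the receptor kinase TDR (also named PXY) in the neighbouring cambium, promotes cambial division and holds back xylem differentiation.

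CLE41 (AT3G24770) gave 7.8, 7.81 and 7.95 in WT and 8.32, 8.12 and 8.29 in the mutant. Every mutant array was above every WT array. It rose by 0.39 ± 0.0937, or 1.31-fold (95% interval 1.13 to 1.52, limma adjusted p = 0.0319). The call ended without WT array 1 (adjusted p = 0.0928), WT array 2 (0.0986), mutant array 1 (0.0951), mutant array 2 (0.0617) or mutant array 3 (0.0755), while the change stayed between 0.35 and 0.45.

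CLE44 (AT4G13195) gave 6.26, 6.44 and 6.27 in WT and 5.93, 5.91 and 6.01 in the mutant. The groups were again separate, in the opposite order. It fell by 0.37 (log2 change, SE 0.0886), 1.3-fold lower in the mutant (limma adjusted p = 0.0304). The call ended without WT array 1 (adjusted p = 0.0575), WT array 2 (0.0908), WT array 3 (0.0505), mutant array 1 (0.0836) or mutant array 2 (0.12), and also when the variance was trended with signal and fitted robustly (0.0513). The changes of CLE41 and CLE44 were close in size and opposite in sign, and each was under the 1.5-fold mark. The amount of the shared peptide was not measured, and the 2 probe sets cannot be added, since signals of different probe sets are not on a common scale. The annotated locus of CLE44 overlaps that of AT4G13190, whose own probe set had a change of -0.03 ± 0.158 (limma adjusted p = 0.925).

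The other CLE genes were dim. CLE27 (AT3G25905) came nearest to the threshold, with 4.22, 4.27 and 3.93 in WT and 4.47, 4.39 and 4.66 in the mutant. Its genotypes were separate, but the change of 0.37 ± 0.12 did not pass (limma adjusted p = 0.0868). CLE26, which acts in protophloem formation in the root, had a change of -0.17 ± 0.172 (limma adjusted p = 0.581) in which 1 array stood apart: the mutant arrays were at 3.93, 4.57 and 4.6 and the WT arrays at 4.52, 4.57 and 4.53, and without mutant array 1 the change was 0.04. CLE40, a regulator of the root stem cell niche, was at the 2.68th percentile of mean signal with a change of 0.06 ± 0.0941, and CLE21 had 0.05 ± 0.119 (limma adjusted p = 0.744 and 0.851).

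**Figure D4:**
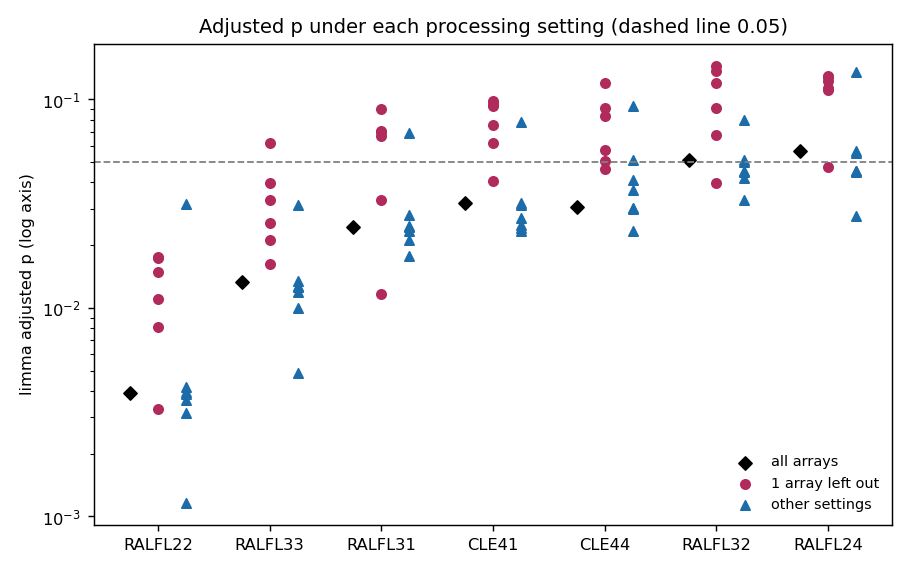
Limma adjusted p (y axis, log scale) of the 5 called genes and of RALFL32 and RALFL24 (x axis) with all arrays (diamonds), with 1 array left out (circles) and under the other processing settings (triangles); the dashed line is 0.05. RALFL22 stays below the line throughout, RALFL33 crosses it in 1 fit, and the other 5 genes lie on both sides.

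No LCR gene passed the test, and 6 of the 8 were dim. Of the 8 genes, limma called 0, and 0 had an unadjusted p under 0.05, which 27.8% of all probe sets and 12.6% of dim probe sets had. With 8 genes, 6 of them dim, nothing particular to LCR genes is read from these counts. The median change was 0.02. The 2 that were not dim encode defensins, and both had bright probe sets. LCR69 (AT2G02100, PDF2.2) was among the brightest probe sets of the array, at the 99.4th percentile, with 12.43, 12.46 and 12.55 in WT and 12.56, 12.47 and 12.6 in the mutant. LCR68 (AT2G02130, PDF2.3) had 10.07, 9.94 and 9.92 in WT and 9.97, 9.96 and 10.01 in the mutant. The genotypes overlapped in both. The 95% intervals of mutant over WT ran from 0.914 to 1.2 for LCR69 and from 0.878 to 1.14 for LCR68, so both exclude a change as large as that of RALFL22.

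LCR68 and LCR69 lie in a cluster of defensin genes on chromosome 2 that also holds LCR72 (PDF2.6) and PDF2.1. PDF2.1, like PDF1.2 and PDF1.4 below, carries no LCR symbol in the annotation used here, so the symbol rule missed it. These PDF genes were not dim and are outside the counts of LCR genes given here. LCR72 was dim, at 4.04, 3.95 and 4.07 in WT and between 4.1 and 4.18 in the mutant. Its genotypes were just separate, with a change of 0.12 ± 0.0813 (limma adjusted p = 0.412). PDF2.1, the neighbour of LCR68, had a change of -0.47 ± 0.233 that did not pass (limma adjusted p = 0.244).

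LCR67 (AT1G75830) encodes the defensin PDF1.1 and had the lowest change of the 25 genes, with the widest interval. Its signals were 3.25, 4.43 and 4.77 in the WT arrays and 3.54, 3.38 and 3.25 in the mutant arrays. WT array 1 was as low as the lowest mutant array, and WT arrays 2 and 3 were higher. The change was -0.76 ± 0.339 (95% interval -1.54 to 0.02, limma adjusted p = 0.192), and without WT array 1 it was -1.21 (adjusted p = 0.00622). PDF1.2, the jasmonate-induced defensin gene of the same subfamily, was likewise lowest in WT array 1 among the WT arrays, at 5.31 against 10.21 and 10.92, and its change of -1.68 ± 1.32 did not pass (limma adjusted p = 0.473) but was -3.43 without WT array 1 (0.0153). PDF1.4, another defensin gene of that subfamily, was also lowest in WT array 1, at 6.68 against 7.81 and 8.51, but its mutant arrays reached as high, at 8.64, 7.84 and 6.72, and its change was 0.07 ± 0.549 (limma adjusted p = 0.959). What sets WT array 1 apart for these genes was not tested. The other LCR genes, LCR24, LCR59, LCR66 and LCR80, were dim, with changes from -0.04 to 0.12.

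Receptors, partners, processing enzymes and other peptide genes were taken from 8 lists, which held a named probe set for 29 genes beyond the 25. Among these, SOL1 shares only its symbol with the gene meant, as described below, and stays in the counts and the median. Of the 29, 3 rose, 2 fell and 24 did not pass, with a median change of -0.08. With 13.1% of all probe sets called, this count does not set the lists apart either. The lists for the IDA pathway and for SERK co-receptors had 0 measured genes and were not analysed here.

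Of 5 measured genes for RALF receptors and partners, THE1 rose and 4 did not pass. THE1 (AT5G54380) encodes the receptor kinase THESEUS1, a sensor of wall integrity and the receptor of RALF34. It gave 7.39, 6.97 and 6.91 in WT and 8.09, 8.28 and 8.11 in the mutant. The genotypes were well apart, and THE1 rose by 1.07 ± 0.137, or 2.1-fold (95% interval 1.69 to 2.61, limma adjusted p = 0.00386), in all 14 alternatives too. FER, which encodes FERONIA, the receptor of RALF22, RALF23 and RALF33, had 9.95, 9.74 and 9.88 in WT and 10.22, 10.1 and 9.95 in the mutant. These overlapped, and the change of 0.23 ± 0.103 did not pass (limma adjusted p = 0.188). The difference between THE1 and FER was not tested. ANX1 and ANX2, receptor kinases known from pollen tubes, were dim with changes of -0.05 ± 0.116 and 0.01 ± 0.122, and S1P, the protease that cleaves the RALF23 precursor, had -0.11 ± 0.0977 (limma adjusted p = 0.823, 0.963 and 0.532).

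Of 7 genes matched by symbol to the list of CLE receptors, targets and the founding ligand CLV3, POL fell and 6 did not pass. POL (AT2G46920) encodes POLTERGEIST, a protein phosphatase that acts downstream of CLAVATA signalling. It gave 6.68, 6.74 and 6.65 in WT and 6.45, 6.24 and 6.26 in the mutant, and fell by 0.37 (log2 change, SE 0.0909; limma adjusted p = 0.0335). The call ended in 5 of the 6 fits with an array left out (without WT array 1, 0.0804; WT array 2, 0.102; WT array 3, 0.0584; mutant array 2, 0.134; mutant array 3, 0.0815). OPS, which encodes the phloem protein OCTOPUS, had a dim probe set with separate genotypes and a change of 0.38 ± 0.117 (limma adjusted p = 0.0746). CLV3 encodes a CLE peptide that restrains the stem cell population of the shoot meristem, and the symbol rule missed it because its name does not begin with CLE. Its probe set was dim, at 3.47, 3.31 and 3.36 in WT and 3.11, 3.36 and 3.21 in the mutant, with a change of -0.15 ± 0.0971 (limma adjusted p = 0.362). ACR4, PXL1 and PXL2 had changes from -0.06 to 0.1, and the probe sets of PXL1 and PXL2 were dim. The symbol SOL1 was matched to AT3G22760, a TSO1-like gene that shares the symbol with the CLE precursor protease gene. It is therefore not a CLE pathway gene, though it stays in the counts of 7 and 6 given here. Its change was -0.08 ± 0.0922 (limma adjusted p = 0.644). PXL1 and PXL2 are relatives of the TDIF receptor, whose own gene had no probe set named here.

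In the EPFL list of 4 measured genes, STOMAGEN (AT4G12970) rose and 3 did not pass. STOMAGEN is a secreted peptide of the EPFL family, made in the mesophyll, that raises stomatal density. The symbol rule missed it because the annotation does not give its EPFL name. It gave 9.09, 9.06 and 8.8 in WT and 9.39, 9.51 and 9.78 in the mutant, and rose by 0.58 ± 0.129, or 1.49-fold (limma adjusted p = 0.0247). The call ended without WT array 2 (adjusted p = 0.064), WT array 3 (0.0628) or mutant array 2 (0.0829). SPCH, MUTE and FAMA, which encode the transcription factors of successive steps of the stomatal lineage, had changes of -0.08 ± 0.12, -0.08 ± 0.111 and -0.35 ± 0.174 (limma adjusted p = 0.744, 0.697 and 0.24). The probe sets of SPCH and MUTE were dim.

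**Figure D5:**
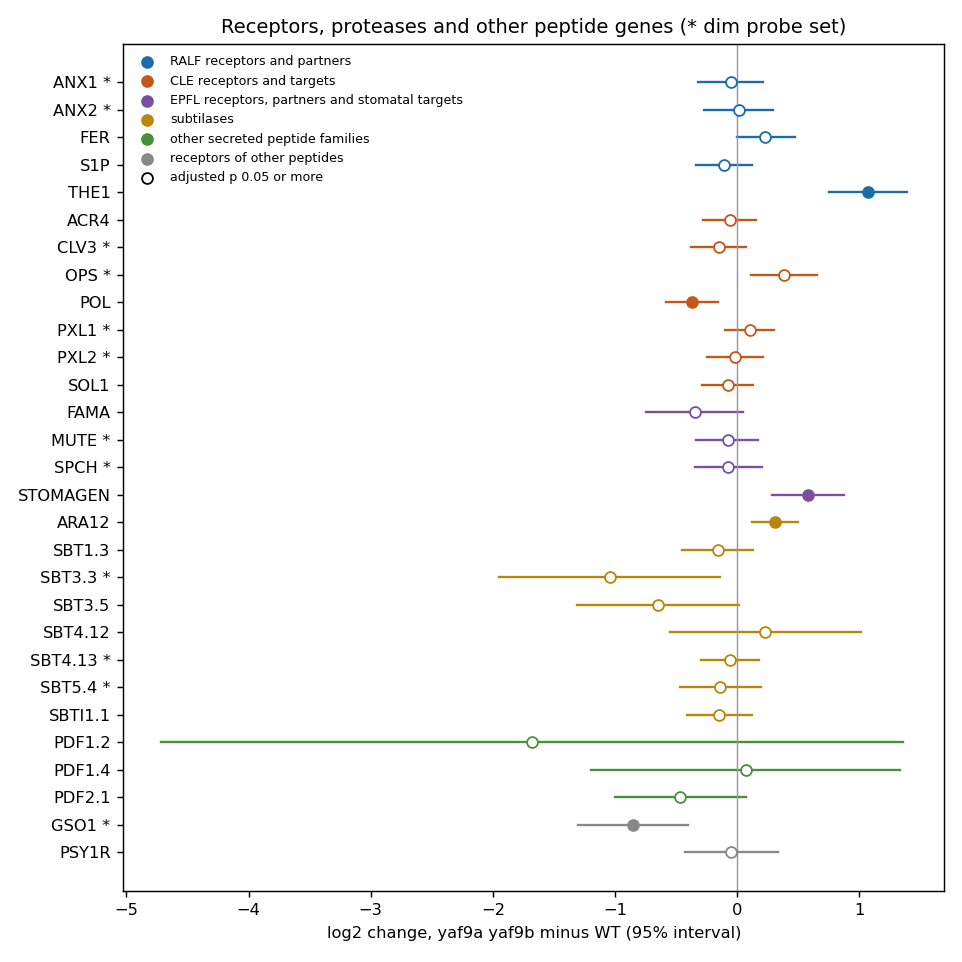
Log2 change (yaf9a yaf9b minus WT, x axis) with the limma 95% interval before adjustment for 29 genes of receptors, proteases and other peptides (y axis), coloured by list. SOL1 is AT3G22760, which shares only its symbol with the CLE precursor protease gene. Filled points passed a limma adjusted p of 0.05: THE1, STOMAGEN and ARA12 lie above 0, and POL and GSO1 below it.

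Subtilases are serine proteases of the cell wall, some of which trim peptide precursors. Of 8 measured, ARA12 (SBT1.7), known for its part in the release of seed mucilage, rose by 0.31 ± 0.0828 (limma adjusted p = 0.046), and the call ended with each of the 6 arrays left out (0.0622 to 0.153). The other 7 did not pass, among them SBT3.3 with -1.04 ± 0.394 (limma adjusted p = 0.128), whose WT arrays 2 and 3 were at 5.23 and 6.02 and whose WT array 1 was the lowest, as for LCR67. SBT3.3 was dim by mean signal. Of 2 measured receptors of other peptides, GSO1, which encodes a receptor of the Casparian strip integrity factors, was at 5.34, 5.61 and 4.94 in WT and 4.78, 4.33 and 4.23 in the mutant. GSO1 fell by 0.85 (log2 change, SE 0.197; limma adjusted p = 0.0283) on a probe set that was dim by mean signal. Without WT array 1, WT array 2, mutant array 2 or mutant array 3 that call ended (0.0774, 0.0915, 0.109 and 0.0599). PSY1R had -0.05 ± 0.164 (limma adjusted p = 0.879).

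Tissue markers stand beside these values because RALFL, CLE and LCR genes differ in where they are expressed. The root markers PYK10, EXPA18 and EXPA7 had changes of -0.15 ± 0.149, 0.07 ± 0.188 and -0.01 ± 0.119, and 0 of 3 passed limma's adjusted p or an unadjusted p of 0.05. EXPA18 and EXPA7 were dim, so the missing difference says little for them. Of 2 leaf markers, LHCB4.2 fell by 0.33 (SE 0.0876, limma adjusted p = 0.0434), a call that ended with each array left out (0.0521 to 0.158) and after median centring (0.0631), and RCA had 0.06 ± 0.0835. Markers of pollen, pistil and seed had 0 named probe sets. The part of tissue makeup in the changes of the peptide genes was not tested. Among the protein-coding genes next to the 5 changed peptide genes, 7 of 10 had a probe set and 1 passed, a count near what the 13.1% called over all probe sets would give. It was AT3G24760 beside CLE41, which fell by 0.77 (SE 0.115, limma adjusted p = 0.00637).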

How the data were processed

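The deposited table holds log2 signals of 22810 probe sets in 6 arrays, made by the authors with RMA and the affy package, per the submitters' processing notes. The sources used here give no versions or genome build, and scan batches were not checked. The 64 control probe sets were left out. Genotypes came from the sample titles. Median signals per array lay between 5.99 and 6.06, and correlations between arrays between 0.98 and 0.996. All 22746 probe sets were fitted by limma (version 3.58.1, R 4.3.3; two-sided moderated test, without a block) with Benjamini-Hochberg adjustment and a threshold of 0.05, after a check on simulated data. Intervals are limma's at 95%, unadjusted.

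Genes were named from GEO's platform annotation and the RefSeq table of TAIR10.1. By gene ID 23 of the 25 genes matched, and RALFL22 and CLE21 were given their loci by symbol. Pathway genes were matched by symbol or synonym. Members and lists were chosen with earlier results of these data known. Named were all 25 genes, called pathway genes, and others of each list. Sequences were not used here.

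Alternatives were cyclic loess, median centring, a trended robust variance model, leaving out dim or _s_at and _x_at probe sets, the mean per gene, the replicate number as a block, a 1.5-fold minimum, and leaving out each array.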

Additional observations from a re-analysis of the deposited data

How the results depend on the processing

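Of 12 called genes among 23 followed through the alternatives (peptide, pathway, marker and neighbouring genes), 3 kept the call in all 14: RALFL22, THE1 and AT3G24760. For these 3, leaving out dim or _s_at and _x_at probe sets, or taking the mean per gene, did not move the change. The 1.5-fold minimum was passed by the size of their changes in the main fit. The number of peptide genes higher in the mutant was 5 in place of 3 after cyclic loess, after median centring, with the trended robust variance model and without dim probe sets, and 1 to 4 with an array left out, the 1 without mutant array 2. The number lower was 1 in place of 2 with the variance model and with the 1.5-fold minimum, the latter by construction. With an array left out it was 0 to 2, at 0 without WT array 2, mutant array 1 or mutant array 2, where 2 genes each had an unadjusted limma p under 0.05. It was 1 without WT array 3 (RALFL31) and 1 without WT array 1, where the gene was LCR67 and neither RALFL31 nor CLE44 kept its call. The median change was 0.02 after cyclic loess, 0.32 over the 10 genes that were not dim, and 0.05 to 0.10 with an array left out. The count of changed probe sets was 1366 with the 1.5-fold minimum and 963 to 2684 with an array left out, lowest without mutant array 2, then 1380 without WT array 2 and 1924 without mutant array 1. Taking the replicate number as block gave 1233, and 2 peptide genes were higher (RALFL22 and RALFL33) and 0 lower, with 2 lower at an unadjusted limma p under 0.05. The block also ended the calls of RALFL31, CLE41, CLE44, POL, STOMAGEN, ARA12 and LHCB4.2 (limma adjusted p 0.0687 to 0.125). Same-numbered arrays deviated together at -0.212, 0.0101 and -0.322, so the number gave no sign of pairing. Changes reversed for 3 genes that were not called: CLE26 to 0.04 without mutant array 1 (-0.29 to 0.04 with an array left out), LCR69 to -0.01 after cyclic loess, and LCR68 to -0.01, -0.01, -0.03 and -0.01 after cyclic loess and without WT array 2, WT array 3 or mutant array 3. Where not stated, the cause was not tested. The low signal of 15 of the 25 genes limits what could be seen for them.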
